A study of Mus musculus with 6 samples.

Results

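The genes described here are 44 genes of mitosis, taken by symbol from the 22219 genes of the deposited table. They encode the kinases and cyclins of G2 and M phase, the spindle assembly checkpoint, the kinetochore, the chromosomal passenger complex, spindle motors, condensin, the machinery of anaphase onset and that of cytokinesis. All 44 symbols were found and all 44 passed the filter on low counts, with 367 to 11832 reads per gene and library. They were measured by RNA sequencing of whole testes of mice on day 10, in 3 control libraries and 3 libraries of a conditional knockout (cKO) of Eif5. The cKO mice came from crosses of Eif5fl/fl animals to a Stra8-Cre line, which is meant to remove the gene in germ cells from the spermatogonial stages at which Stra8 is active, while somatic cells of the testis keep it. The labels do not give the genotype of the controls or the strain, and do not say whether each library was made from a different mouse. Whether the controls carried Cre or floxed alleles is thus not known, so what those alleles do by themselves cannot be told apart from the loss of Eif5, and the p-values measure the spread between these libraries, which may be technical.

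To divide, a cell enters mitosis when cyclins A and B activate the kinase CDK1, condenses its chromosomes with condensin and topoisomerase II, and attaches them to the spindle through kinetochores. The spindle assembly checkpoint holds back CDC20 and the anaphase-promoting complex until all kinetochores are attached, after which separase is freed, the sister chromatids part and the central spindle guides the cleavage of the cell. In the testis of the young mouse the dividing cells include spermatogonia, which go through a series of mitoses before they enter meiosis, and Sertoli cells, which still divide before puberty. Many mitotic genes are made mainly in G2 and M phase, so their RNA level in a tissue follows the share of dividing cells as well as the level in each cell.

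Recovered read totals ran from 32555443 to 48409550 per library. Eif5, the gene that was targeted, read 11965, 10551 and 11187 normalised read counts in control replicates 1 to 3 and 8548, 8982 and 9574 in cKO replicates 1 to 3. It was lower in all 3 cKO libraries (log2 fold change -0.31, SE 0.0947, limma adjusted p = 0.024), although its log2 fold change was 0.24 with scaling to germ cell markers and the call ended without cKO replicate 1 or 2 (limma adjusted p = 0.13 and 0.0875). The table has 1 value for the whole gene, so reads of the exons removed by Cre are not seen apart. Markers of germ cells, Sertoli cells and Leydig cells, the cell types that define a testis, were detected in all 6 libraries. A normalised read count is the number of reads of a gene after division by the size factor of its library, as deposited. Fold changes are on the scale of log2(normalised read count + 2), and a gene was called at a limma adjusted p under 0.05, adjusted over all 17570 genes tested.

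With the deposited size factors, though not with scaling to germ cell markers (below), mitotic genes were lower in cKO testes through all 8 roles. Of the 44 genes, 33 fell and 0 rose, and the 11 others were not called. Among all genes tested 10.4% were called lower and 9.63% higher. The median log2 fold change of the 44 genes was -0.51, against 0.01 over all genes tested, and their values ran from -1.04 for Ncapg2 to 0.22 for Bub3. At least a 1.5-fold fall was reached by 13 members, where 4.71% of all genes tested were called at that size. In 37 of the 44 genes every cKO library lay below every control library, which held for 18.4% of all genes tested. The reverse order was found in 3 genes, Bub3, Cdk1 and Racgap1, against 18.3% of all genes, and none of the 3 was called. One of them, Bub3, had an unadjusted limma p under 0.05 and was the single member above 0 to do so, while edgeR and DESeq2 also called 0 members higher. Of the 33 genes called, 28 stayed called whichever library was left out.

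**Figure D1:**
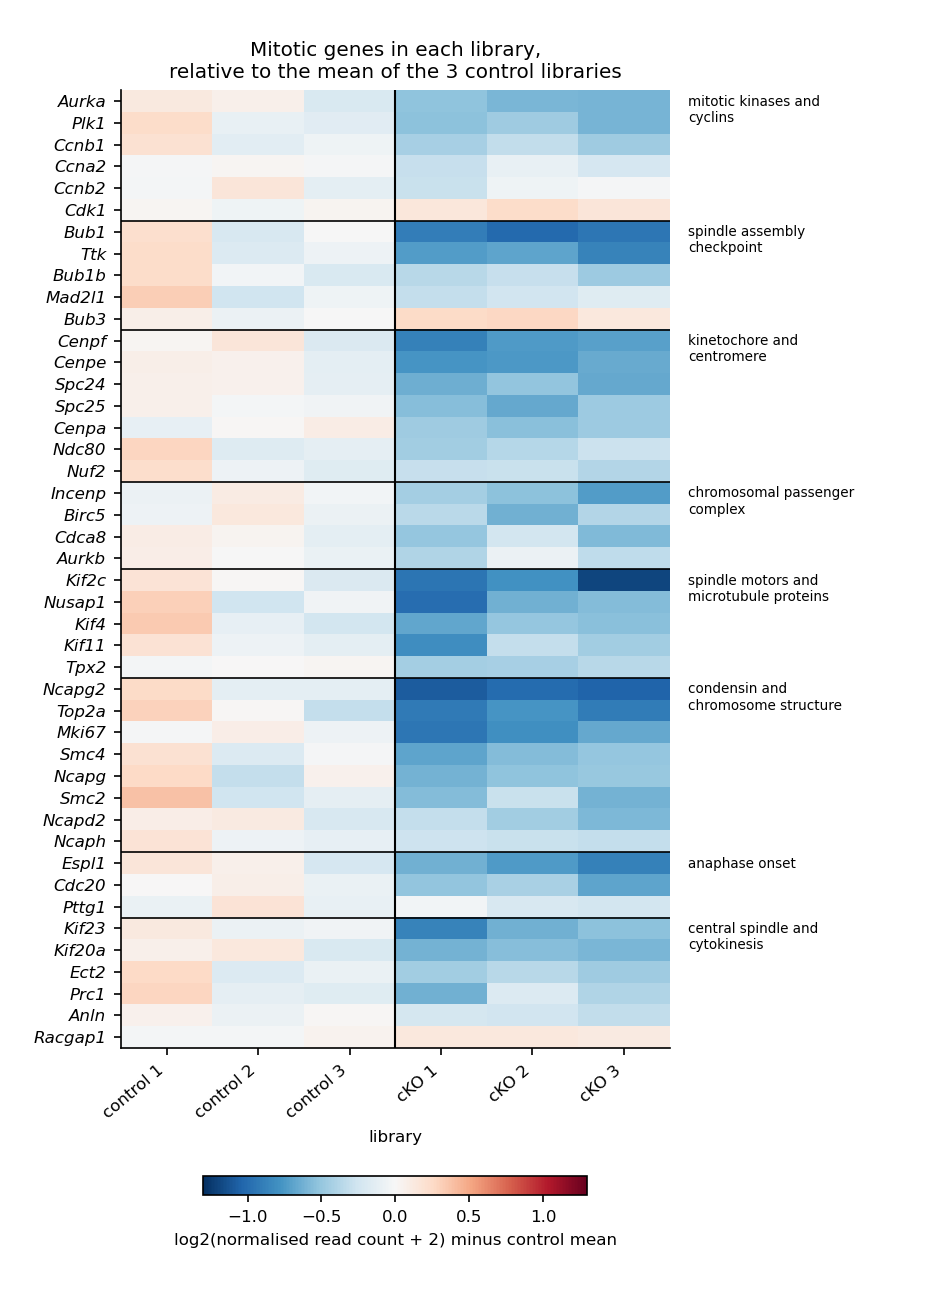
Each row is 1 of the 44 genes, grouped by role, and each column 1 library; colour gives log2(normalised read count + 2) minus the mean of the 3 control libraries. With the deposited factors, cKO means are lower in 41 rows and higher in the rows of Cdk1, Bub3 and Racgap1.

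Whole testes hold many cell types, so a lower value can come from fewer dividing cells or from less RNA per cell, and these cannot be told apart. Summed over the 44 genes, the level was 108816, 99932 and 93796 normalised read counts in control replicates 1 to 3 and 70322, 73890 and 71217 in cKO replicates 1 to 3. All 3 cKO libraries were thus below all 3 controls. Of the 6 pan germ cell markers (Ddx4, Dazl, Dnd1, Piwil2, Tex14 and Mael), 5 were called lower and 0 higher, and their summed level was 31267 to 38773 in control and 21446 to 23110 in cKO. Sertoli cell markers moved the other way: 6 of 10 were called higher and 1 lower (0 without control replicate 2 or cKO replicate 1), with summed levels of 245624 to 367815 in control and 389063 to 449266 in cKO. A single Sertoli marker reached 319016 reads in 1 library, so these sums can rest largely on 1 gene. With each Sertoli marker weighed alike, the mean log2 level minus its control mean was -0.19 to 0.12 in control and 0.34 to 0.43 in cKO. No marker of either list was at 0 in any library. Their part in the fall of the mitotic genes was not tested, but the direction of that fall depended on the reference it was set against. With the deposited factors 33 members were lower, with library totals 38 and with scaling to the Sertoli cell markers 41, while with scaling to the pan germ cell markers 3 were lower and 6 higher, with a median of 0.052.

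These scalings moved all genes alike. The median of all genes tested was 0.01 with the deposited factors, -0.08 with library totals, -0.38 with the Sertoli scaling and 0.56 with the germ cell scaling. Of all calls, 51.9%, 75.6%, 99.2% and 2.46% were lower, in the same order. Relative to the median of all genes, the median of the mitotic genes was -0.51, -0.51, -0.52 and -0.50. These values had to be nearly equal, because each scaling divides all genes of a library by the same factor. The 3 members still lower with the germ cell scaling were Bub1 (-0.39), Kif2c (-0.42) and Ncapg2 (-0.48), and the 6 higher were Cdk1 (0.74), Ccnb2 (0.44), Ccna2 (0.35), Bub3 (0.78), Pttg1 (0.40) and Racgap1 (0.69). All values that follow use the deposited factors, and all directions given below are for that scaling.

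**Figure D2:**
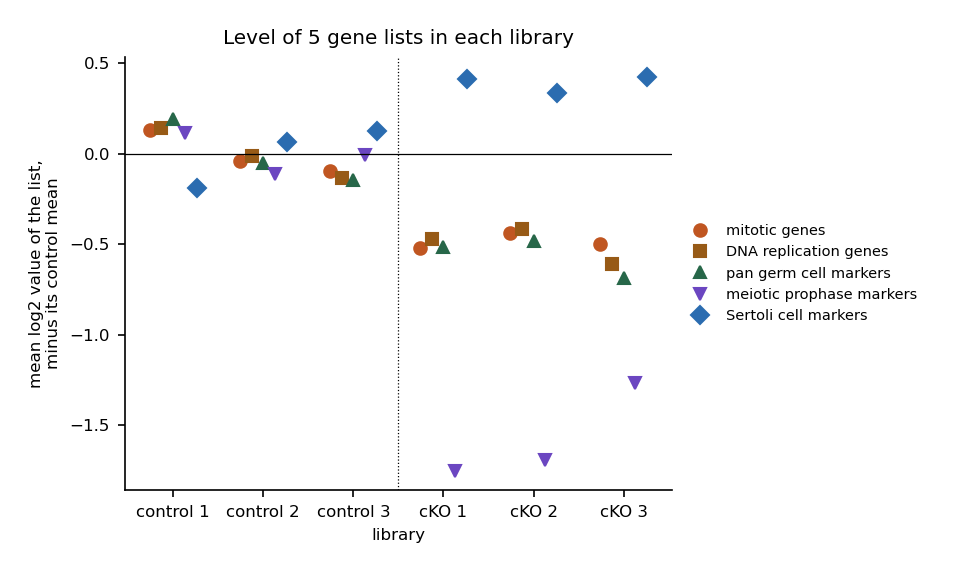
Points give, for each library, the mean log2 value of a gene list minus its mean over the 3 control libraries. Mitotic genes, DNA replication genes and pan germ cell markers lay between -0.68 and -0.41 in the cKO libraries, meiotic prophase markers lower, and Sertoli cell markers above 0.

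The 4 members with the smallest limma p were Ncapg2, Bub1, Mki67 and Cenpf. Their promoters are shown because many mitotic promoters carry a shared pair of elements. These are the cell cycle genes homology region, TTTGAA or TTTAAA, which is bound by LIN54 in the DREAM and MYBL2 complexes, and the CCAAT box, which is bound by NF-Y. Each line gives the 250 bases before the annotated start, 5′ to 3′ on the strand of the gene, from RefSeq on GRCm38.p6, with matches to these 3 strings of letters on either strand in capitals. The windows lie at chr12:116405186-116405435 on the plus strand for Ncapg2 and, on the minus strand, at chr2:127831860-127832109 for Bub1, chr7:135716380-135716629 for Mki67 and chr1:189688087-189688336 for Cenpf.
Ncapg2: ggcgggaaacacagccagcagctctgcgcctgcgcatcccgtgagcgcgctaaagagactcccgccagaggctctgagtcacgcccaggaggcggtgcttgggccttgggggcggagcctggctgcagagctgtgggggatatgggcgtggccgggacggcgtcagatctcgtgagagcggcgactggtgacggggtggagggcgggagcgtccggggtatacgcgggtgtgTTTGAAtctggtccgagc
Bub1: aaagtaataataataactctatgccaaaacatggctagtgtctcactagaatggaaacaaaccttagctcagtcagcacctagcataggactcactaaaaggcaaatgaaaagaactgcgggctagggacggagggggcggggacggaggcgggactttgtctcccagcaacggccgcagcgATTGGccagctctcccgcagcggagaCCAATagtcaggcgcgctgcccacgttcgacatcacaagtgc
Mki67: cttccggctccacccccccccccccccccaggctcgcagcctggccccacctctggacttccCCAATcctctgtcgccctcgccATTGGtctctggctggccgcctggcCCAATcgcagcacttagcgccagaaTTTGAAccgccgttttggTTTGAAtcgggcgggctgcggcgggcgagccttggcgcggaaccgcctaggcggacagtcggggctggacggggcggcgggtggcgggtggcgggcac
Cenpf: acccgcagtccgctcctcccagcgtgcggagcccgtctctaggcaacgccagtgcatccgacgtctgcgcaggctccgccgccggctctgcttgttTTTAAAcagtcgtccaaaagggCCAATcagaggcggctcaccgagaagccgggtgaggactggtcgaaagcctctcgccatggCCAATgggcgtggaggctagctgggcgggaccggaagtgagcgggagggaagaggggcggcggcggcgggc

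The Ncapg2 window held 1 TTTGAA, whose first base was at -18, counted from -1 just before the start, and no CCAAT. Mki67 held 2 copies of TTTGAA, at -116 and -98, and 3 CCAAT matches further upstream. In Cenpf a TTTAAA began at -154 and a pair of CCAAT matches at -132 and -71, and a TTTGAA just past the start, at position 3, lies outside the printed bases. Bub1 held a pair of CCAAT matches and neither TTTGAA nor TTTAAA, so the letters were not shared by all 4. Windows of 250 bases before to 50 after the start were found for 37 of the 44 members, 40 windows in all. TTTGAA was in 31 of these (77.5%), against 17.9% of all 32851 windows of the table. TTTAAA, which reads the same on both strands, was in 9 (22.5%, against 13.2%), and CCAAT in 30 (75%, against 37.4%). In the further mitotic genes described below, 46.1% of windows held TTTGAA and 64.5% CCAAT. In the DNA replication genes, also described below, these shares were 10.3% and 55.2%. TTTGAA or TTTAAA was found in 25 of 28 members called lower and in 6 of 9 not called that had a window. Over all genes with a window the share was 30.6%. CCAAT was found in 23 of the 28 called lower and in 4 of the 9 not called, against 41.1% of all genes with a window. Cdk1 and Racgap1, which were not called, both held TTTGAA. A match describes the letters and shows no binding, and its part in the values of the genes was not tested.

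Among the kinases and cyclins, 3 of 6 genes fell. Aurka, which encodes the kinase that matures spindle poles, read 1061, 1011 and 845 normalised read counts in control replicates 1 to 3 and 674, 642 and 635 in cKO replicates 1 to 3. The groups did not overlap (log2 fold change -0.57, SE 0.116, limma adjusted p = 0.0017). Plk1, whose kinase drives mitotic entry and many later steps, read 1495, 1186 and 1138 in control and 869.8, 917 and 830.0 in cKO, again without overlap (log2 fold change -0.53, SE 0.115, limma adjusted p = 0.00281). Ccnb1, the gene of cyclin B1, was the third to fall, from 2604 ± 322 to 1957 ± 100.3 (SD, n = 3 per group; log2 fold change -0.41, limma adjusted p = 0.00762). Its partner Cdk1, the kinase that sets off mitosis, was not called: it read 1434, 1349 and 1438 in control and 1554, 1654 and 1570.3 in cKO, with every cKO library above every control (log2 fold change 0.18, SE 0.0957, limma adjusted p = 0.199). The log2 fold changes of the other cyclin genes, also not called, were -0.20 for Ccna2 (limma adjusted p = 0.118) and -0.12 for Ccnb2 (limma adjusted p = 0.488).

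Of the spindle assembly checkpoint, 3 of 5 genes fell. Bub1, a kinase that docks on unattached kinetochores, read 3075, 2299 and 2632 normalised read counts in control and 1424, 1316 and 1379 in cKO. The highest cKO library was well under the lowest control (log2 fold change -0.95, SE 0.106, limma adjusted p = 3.56e-06). Ttk, which encodes the MPS1 kinase at the top of the checkpoint, read 1177, 882 and 955 in control and 601, 620.0 and 545 in cKO, with no overlap (log2 fold change -0.76, SE 0.123, limma adjusted p = 0.000217). Bub1b, whose product BUBR1 is part of the inhibitor of the anaphase-promoting complex, had a log2 fold change of -0.38 (limma adjusted p = 0.0234). That call ended without control replicate 1 or cKO replicate 1 or 3 (limma adjusted p = 0.102, 0.0583 and 0.0979). Mad2l1, which encodes the MAD2 protein that holds CDC20, had a log2 fold change of -0.24 and was not called (limma adjusted p = 0.17). Its control libraries read 2307, 1541 and 1779 and overlapped the cKO values of 1489, 1551 and 1664, and it was called lower without control replicate 2 (limma adjusted p = 0.0368). Bub3, the adaptor that carries BUB1 and BUBR1 to kinetochores, read 2474, 2229 and 2338 in control and 2786, 2819.7 and 2576 in cKO, higher in every cKO library but not called (log2 fold change 0.22, SE 0.0921, limma adjusted p = 0.101).

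Of the 7 kinetochore and centromere genes 6 fell. Cenpf, a large protein of the outer kinetochore and nuclear envelope, read 8751, 9546 and 7553 normalised read counts in control and 4677, 5137 and 5256 in cKO. Even the lowest control library stood far above the highest cKO library (log2 fold change -0.77, SE 0.0996, limma adjusted p = 1.77e-05). Cenpe, the kinesin that moves chromosomes to the spindle equator, read 2891, 2852 and 2519.7 in control and 1614, 1642 and 1742 in cKO (log2 fold change -0.72, SE 0.095, limma adjusted p = 2.24e-05). Spc24 and Spc25 form the end of the NDC80 complex that anchors it to the centromere. Spc24 read 1115, 1102 and 978 in control and 685, 742 and 669 in cKO (log2 fold change -0.61, SE 0.11, limma adjusted p = 0.000652). In Cenpe and Spc24 the groups were apart. Spc25 had a log2 fold change of -0.56 (limma adjusted p = 0.000451), and Cenpa, the centromeric histone H3 variant, -0.49 (limma adjusted p = 0.000847). Nuf2 and Ndc80 make the other end of the complex, which grips microtubules. The log2 fold change of Nuf2 was -0.32 (limma adjusted p = 0.0462), a call that held only without control replicate 3 among the fits with 1 library left out (limma adjusted p = 0.0538 to 0.189 in the others). Ndc80, at -0.37, was not called (limma adjusted p = 0.0651) but was called lower by edgeR and DESeq2 on the recovered reads (adjusted p = 0.0489 and 0.042) and by limma without control replicate 2 (adjusted p = 0.0444).

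The chromosomal passenger complex corrects faulty attachments at the centromere and later moves to the central spindle, and 3 of its 4 genes fell. Incenp, the scaffold of the complex, read 1404, 1592 and 1442 normalised read counts in control and 1087, 1023 and 892 in cKO. No cKO library reached the control range (log2 fold change -0.57, SE 0.107, limma adjusted p = 0.000929). Birc5, the gene of survivin, read 1382, 1592 and 1365 in control and 1133, 932 and 1111 in cKO (log2 fold change -0.45, SE 0.109, limma adjusted p = 0.0064), but was not called without cKO replicate 2 (limma adjusted p = 0.0562). Cdca8, which encodes borealin, had a log2 fold change of -0.44 (limma adjusted p = 0.00681). Aurkb, the kinase of the complex, was not called, with a log2 fold change of -0.27 (limma adjusted p = 0.0959): cKO replicate 2, at 1086, lay within the control range of 1078 to 1219.

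All 5 genes of spindle motors and microtubule proteins fell. Kif2c, the kinesin MCAK that takes microtubules apart at centromeres, read 1342, 1193 and 1038 normalised read counts in control and 614, 684 and 519 in cKO. The groups were far apart, and cKO replicate 3 was the lowest library (log2 fold change -0.97, SE 0.126, limma adjusted p = 1.88e-05). Nusap1, a protein that bundles microtubules near chromosomes, read 1324, 892 and 1033 in control and 537, 691 and 723 in cKO, with no overlap (log2 fold change -0.73, SE 0.141, limma adjusted p = 0.00118). Log2 fold changes were -0.57 for Kif4, a chromokinesin, -0.52 for Kif11, the kinesin that pushes spindle poles apart, and -0.41 for Tpx2, the activator of Aurora A, with limma adjusted p = 0.00717, 0.00489 and 0.00368. The control libraries of Tpx2 were close together, at 2087, 2136 and 2159, and the cKO libraries read 1562, 1575 and 1656.

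In the group of condensin and chromosome structure 7 of 8 genes fell, and it held the largest fall of the 44. Ncapg2, a subunit that belongs to condensin II and not to condensin I, read 3526, 2729 and 2729 normalised read counts in control and 1406, 1489 and 1444 in cKO. The 3 cKO libraries were close together and far below the controls, and the group means were 2995 ± 459.8 and 1447 ± 41.3 (SD, n = 3 per group; log2 fold change -1.04, SE 0.105, limma adjusted p = 9.9e-07). Mki67, which encodes the Ki-67 protein that coats mitotic chromosomes and marks cycling cells, read 4874, 5237 and 4731 in control and 2585, 2839.8 and 3116 in cKO, without overlap (log2 fold change -0.80, SE 0.0949, limma adjusted p = 6.29e-06). Top2a, the topoisomerase that untangles sister chromatids, read 7516, 6159 and 4925 in control and 3236, 3594 and 3242 in cKO (log2 fold change -0.86, SE 0.118, limma adjusted p = 3.27e-05). Control libraries of Top2a were widely spread, yet all were above the cKO libraries. Smc4 (-0.58, limma adjusted p = 0.000472) and Smc2 (-0.49, limma adjusted p = 0.0151), the core pair shared by both condensins, fell by the log2 fold changes given. The call of Smc2 ended without control replicate 1 or cKO replicate 1 or 3 (limma adjusted p = 0.0843, 0.056 and 0.0643). Of the subunits of condensin I, Ncapg (-0.55, limma adjusted p = 0.00765) and Ncapd2 (-0.45, limma adjusted p = 0.00462) fell. Ncaph was not called (-0.29, limma adjusted p = 0.0681), but DESeq2 called it lower (adjusted p = 0.0434), as did limma without control replicate 3 (adjusted p = 0.0488). The other subunits of condensin II, which are not among the 44 genes and are named here for their complex, were Ncapd3 (-0.48, limma adjusted p = 0.00779), which fell, and Ncaph2 (-0.21, limma adjusted p = 0.146), which was not called.

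Among the 3 genes of anaphase onset, Espl1 and Cdc20 fell. Espl1, the gene of separase, the protease that cuts cohesin, read 3032, 2861 and 2339 normalised read counts in control and 1764, 1642 and 1485 in cKO. The groups were apart (log2 fold change -0.75, SE 0.107, limma adjusted p = 6.42e-05). Cdc20, which turns on the anaphase-promoting complex, read 2263, 2383 and 2129 in control and 1578, 1682 and 1406 in cKO (log2 fold change -0.54, SE 0.0991, limma adjusted p = 0.000713). Pttg1, the gene of securin, which holds separase inactive, read 868, 1045 and 865 in control and 900.2, 798 and 783 in cKO. These values overlapped, and the log2 fold change of -0.16 was not called (limma adjusted p = 0.356).

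Central spindle and cytokinesis genes fell in 4 of 6 cases. Kif23, the kinesin of the centralspindlin complex, read 2078, 1804 and 1842 normalised read counts in control and 1041, 1238 and 1317 in cKO. No library of one group reached the range of the other (log2 fold change -0.67, SE 0.108, limma adjusted p = 0.000186). Kif20a, a kinesin that brings the passenger complex to the midzone, read 1620.5, 1699 and 1353 in control and 1015, 1053 and 1029.9 in cKO, with the 3 cKO libraries close together (log2 fold change -0.59, SE 0.106, limma adjusted p = 0.000655). Ect2, the exchange factor that activates RhoA at the cleavage furrow (-0.43, limma adjusted p = 0.0103), and Prc1, which cross-links the microtubules of the midzone (-0.40, limma adjusted p = 0.0273), fell by the log2 fold changes given. The call of Prc1 ended without control replicate 1 or cKO replicate 1 or 3 (limma adjusted p = 0.127, 0.16 and 0.0627). Anln, the anillin scaffold of the contractile ring, was not called (-0.26, limma adjusted p = 0.0639), although its groups did not overlap and DESeq2 called it lower (adjusted p = 0.036). Racgap1, the partner of Kif23 in centralspindlin, read 5085, 5075 and 5328 in control and 5687, 5679 and 5579.7 in cKO, higher in each cKO library but not called (log2 fold change 0.13, SE 0.087, limma adjusted p = 0.316).

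**Figure D3:**
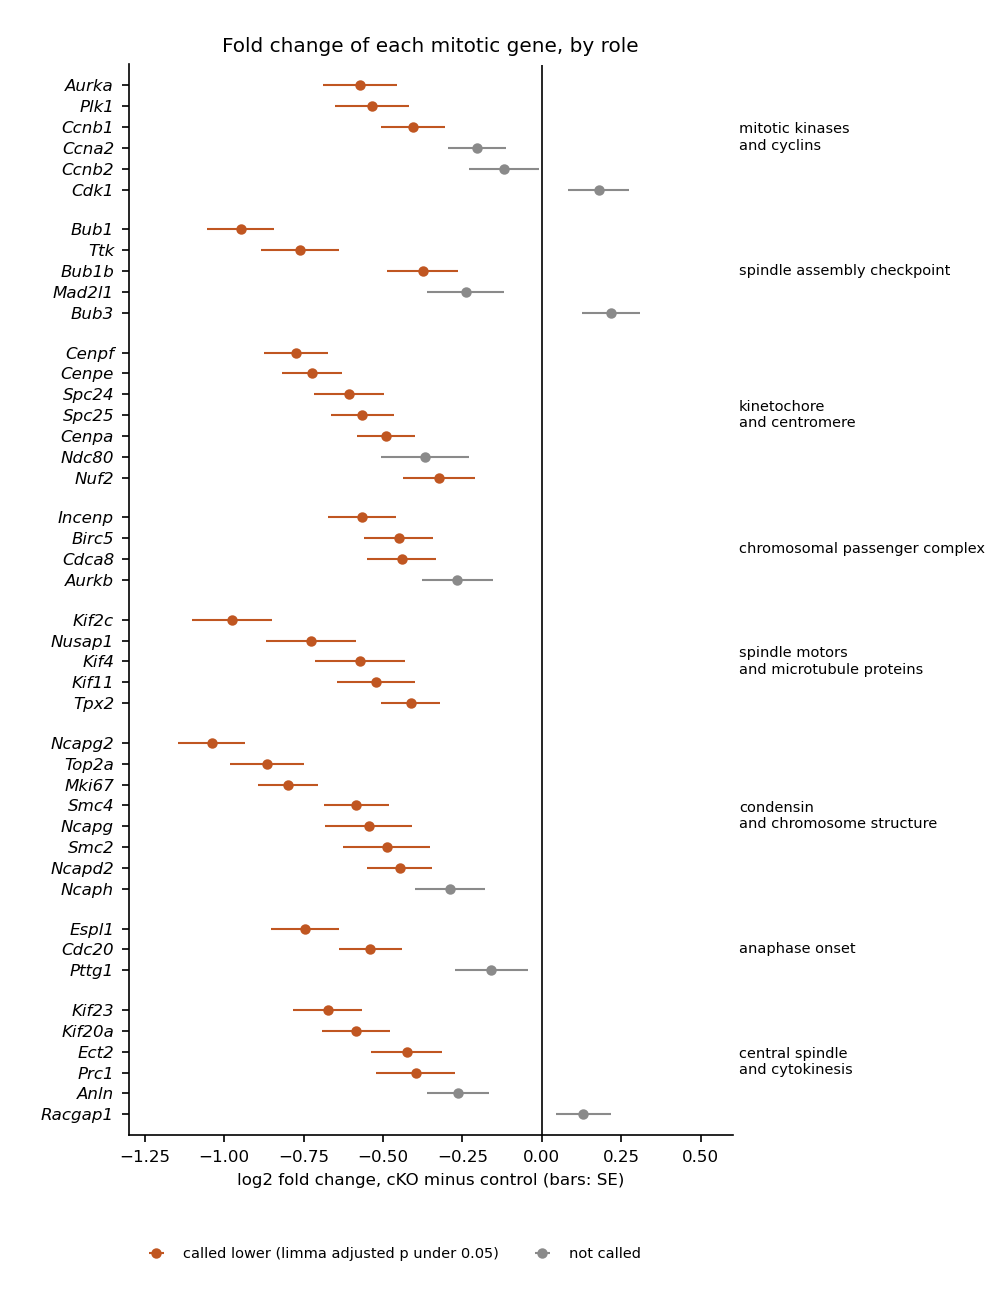
Points give the log2 fold change of each of the 44 genes and bars its SE from limma, with genes ordered by role; orange marks the 33 genes called lower and grey the 11 not called. The points run from -1.04 for Ncapg2 to 0.22 for Bub3, and Cdk1, Bub3 and Racgap1 are the points above 0.

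Partners of 1 complex did not all move by the same amount. A ratio between a pair of genes within a library does not depend on how libraries are scaled, and 9 pairs were compared in this way. Such a ratio can still shift with the mix of cell types in the testis, and that part was not tested. They were chosen after the values above were seen, so they were given no test. The ratio of Ccnb1 to Cdk1 was 2.07, 1.75 and 1.73 in control replicates 1 to 3 and 1.24, 1.25 and 1.19 in cKO replicates 1 to 3. For Bub1 to Bub3 it was 1.24, 1.03 and 1.13 in control and 0.511, 0.467 and 0.535 in cKO. The ratio of Kif23 to Racgap1, the centralspindlin pair, was 0.409, 0.356 and 0.346 in control and 0.183, 0.218 and 0.236 in cKO. In each of these pairs every cKO library was below every control library. That order was fixed in advance, because the first gene was lower and the second higher in every cKO library. The same holds for Mki67 to Cdk1 below. How often other pairs of genes show this order was not tested. Ncapg2 of condensin II set against Ncaph of condensin I gave 2.99, 2.76 and 2.84 in control and 1.64, 1.76 and 1.72 in cKO, and separase set against securin (Espl1 to Pttg1) gave 3.49, 2.74 and 2.70 and 1.96, 2.06 and 1.90, both without overlap. Within the NDC80 complex the ratio of Spc25 to Ndc80 was 2.78, 3.56 and 3.38 in control and 3.0, 2.62 and 2.83 in cKO, and here the groups overlapped. In 3 further pairs, not all of which bind each other, the cKO libraries were again below the controls. Ncapg2 to Ncapg gave 3.83, 4.41 and 3.42 in control and 2.80, 2.79 and 2.65 in cKO, Kif2c to Tpx2 0.643, 0.559 and 0.481 and 0.393, 0.434 and 0.313, and Mki67 to Cdk1 3.40, 3.88 and 3.29 and 1.66, 1.72 and 1.98. The counts are not divided by gene length, so only the change of a ratio between libraries can be read.

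**Figure D4:**
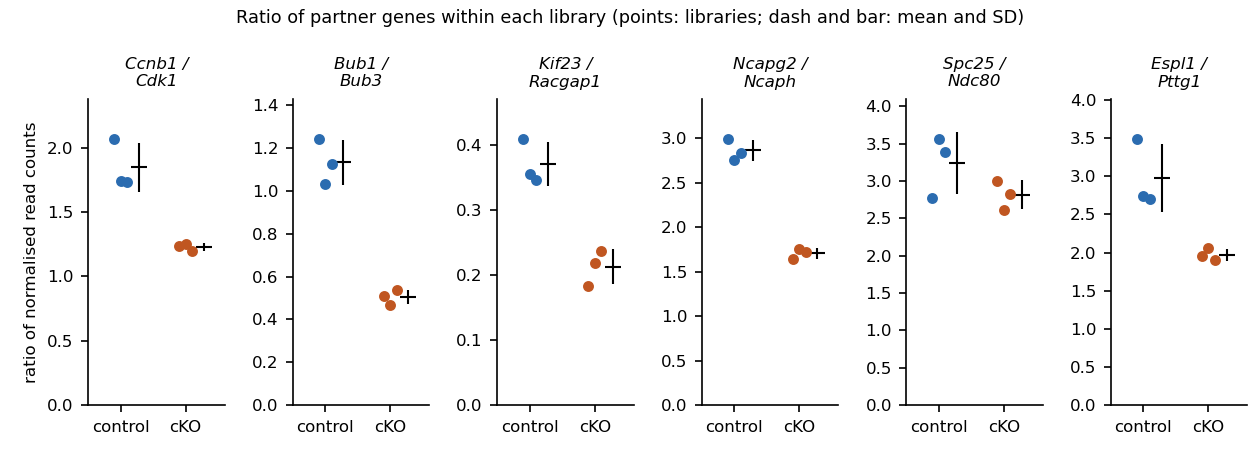
Each panel plots the ratio of normalised read counts for 1 of 6 pairs of genes (vertical axis, from 0) for the 3 control and 3 cKO libraries, with the mean and SD beside the points. In 5 panels the cKO libraries lie below all controls, and in the panel of Spc25 to Ndc80 the groups overlap. For Ccnb1 to Cdk1, Bub1 to Bub3 and Kif23 to Racgap1 the order of the groups follows from the separate values of both genes.

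Other genes of the cell cycle moved the same way with the deposited factors, though not with the germ cell scaling, with which 3 further mitotic genes were lower and 20 higher, and 3 replication genes lower and 5 higher. Of 80 further mitotic genes, 45 fell and 0 rose, with a median log2 fold change of -0.37 (0 had an unadjusted limma p under 0.05 in the upward direction, and edgeR and DESeq2 also called 0 higher). The number lower was 27 without cKO replicate 3. The largest falls were in the spindle kinesin gene Kif15 (-1.12), Oip5, which helps to load CENP-A (-0.99), Knl1, the kinetochore scaffold on which BUB1 docks (-0.97), the spindle gene Hmmr (-0.85), Spdl1, which recruits dynein to kinetochores (-0.83), and Ska3 of the kinetochore SKA complex (-0.75). Of 30 DNA replication genes 23 fell and 0 rose, with a median of -0.50. They were led by Ccne2 (-1.42) and Ccne1 (-0.89), the genes of the cyclins E that start S phase, Rrm2, a subunit gene of ribonucleotide reductase (-1.16), the polymerase gene Pole (-0.89), the ligase gene Lig1 (-0.81) and the licensing gene Cdc6 (-0.77). Without control replicate 1 or cKO replicate 3, 17 replication genes were lower. Whether the lists differ from each other was not tested.

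Of 22 genes that regulate mitotic transcription, 7 fell and 1 rose, with a median log2 fold change of -0.16. E2f2 fell the most (-1.32), ahead of the repressor gene E2f7 (-0.67), Lin9 (-0.52) and Mybl2 (-0.51), which encode subunits of the complex that activates mitotic genes, and E2f5 (-0.49) and Rbl1 (-0.48), which encode parts of pocket protein repressor complexes. Rbl2, another pocket protein gene, rose by 0.30 with the deposited factors (limma adjusted p = 0.0265) but read -0.10 with the Sertoli scaling, and its call also ended with library totals and in 4 of the 6 fits that left out 1 library. Foxm1, the activator of G2 and M phase genes, was not called (-0.20, limma adjusted p = 0.151), nor was Cdkn1a, the gene of the CDK inhibitor p21 (-0.10, limma adjusted p = 0.728); these 2 were named after their values were seen. Among 9 meiotic counterparts of mitotic genes, 8 could be tested and 6 fell, with a median of -1.18. The ninth, Meikin, was left out by the filter on low counts. Those that fell were the meiotic cohesin genes Rad21l (-1.66), Stag3 (-1.42), Smc1b (-1.40) and Rec8 (-0.79), the meiotic cyclin gene Ccnb3 (-1.62) and Sgo2a, a protector of centromeric cohesin (-0.65). The call of Sgo2a ended without control replicate 1 or cKO replicate 1 or 2 (limma adjusted p = 0.104, 0.131 and 0.0537).

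Markers of the stages and cell types that the tissue holds were set beside these lists. Among all genes tested, 10.4% were called lower and 9.63% higher. All 12 meiotic prophase markers were lower (median log2 fold change -1.46), in each of the 6 fits that left out 1 library too. Of 6 markers of differentiating spermatogonia 5 were lower (-0.43), but 3 without cKO replicate 3. Of 12 markers of undifferentiated spermatogonia 3 were higher and 1 lower (-0.04), and the number lower was 0 without cKO replicate 3, 3 without cKO replicate 2 and 4 without control replicate 3. Leydig cell markers were higher in 5 of 6 cases (0.58), and in 4 to 6 when 1 library was left out. Macrophage markers were higher in 6 of 8 cases (0.37), but this count rested on single libraries and on the scaling: library totals gave 0, as did leaving out cKO replicate 1 or 2, leaving out control replicate 1 or 2 gave 1, and leaving out cKO replicate 3 gave 4. Of 6 peritubular myoid markers 2 were lower (-0.21), but 0 without cKO replicate 1 or 2, 1 without cKO replicate 3 or control replicate 2 or 3, and 3 without control replicate 1. Of 7 endothelial markers 1 was higher and 1 lower (-0.02), the first call ending without cKO replicate 1 and the second without control replicate 2 or cKO replicate 2. Their part in the values of the mitotic genes was not tested.

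**Figure D5:**
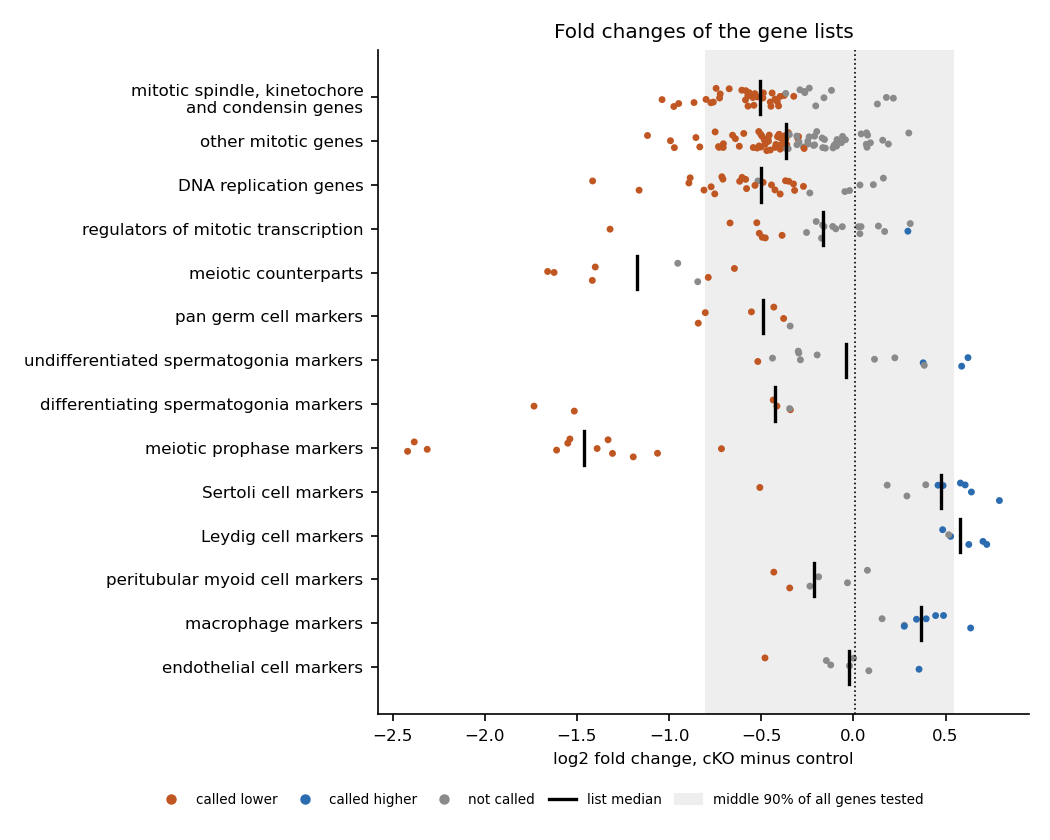
Each point is the log2 fold change of 1 gene, coloured by its call, in the 44 mitotic genes and 13 other lists; the black bar is the median of the list, and grey marks the middle 90% of all genes tested, from -0.80 to 0.54. The medians of the mitotic genes (-0.51) and the DNA replication genes (-0.50) lie to the left of the median of all genes, drawn as a dotted line.

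Some counts may hold reads of a neighbour or a copy. In GENCODE M21, exons of 8 members (Ccna2, Cdc20, Cdca8, Kif20a, Kif4, Ncapg, Nusap1 and Prc1) overlap those of a gene on the opposite strand that is also in the table. Reads of such a pair cannot be told apart unless the counting used strand, which is not stated. The partner of Nusap1 is Oip5, which is among the further mitotic genes named above. Named pseudogene copies exist for Ccnb1, Ccnb2 and Kif4, so their values are uncertain where reads were shared.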

How the data were processed

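RNA was sequenced from whole mouse testes on day 10, 3 control and 3 cKO libraries, grouped and numbered by their titles. Libraries were made from total RNA with an mRNA kit, per the labels' protocols. The submitters' processing notes list StringTie 1.3.1 and RSEM without a role; aligner, build, annotation and strand setting: not given in the sources used here. One table of 22219 genes was deposited, named for raw counts, whose values are a normalised signal: in each column 100% were whole multiples of 1 step (tolerance 1e-06), and the inverse of the step, 0.825 to 1.35, was the median-of-ratios size factor of the recovered read counts. The lowest total over the 6 libraries was 10 reads, so no gene below that total was in it. Among recovered counts of 1 to 20, 75.1% to 80.9% per library were even, a pattern the sources do not account for. Totals of 32555443 to 48409550 reads put the least read member at 367 reads in a library.

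limma 3.58.1 (trend) was fitted to log2(value + 2), 2-sided, without covariates, on the 17570 genes that passed edgeR's filterByExpr (minimum count 10), which left out 4649, with Benjamini-Hochberg adjustment. edgeR 4.0.16 (quasi-likelihood, TMM factors) and DESeq2 1.42.0 were run on the recovered reads; edgeR called 1857 genes lower and 1575 higher, and limma 1829 and 1692. Further alternatives were other pseudocounts, filters, scalings, a block for the replicate number and leaving out each library. The scripts were tested on simulated data. R was 4.3.3. No pair of libraries agreed within sampling noise (chi-square per degree of freedom 10.2 or more). This value was 10.2 to 17.3 between cKO libraries and 44.7 to 58.7 between controls. For control replicate 3 against cKO replicates 1 and 3 it was 32.7 and 32.5, less than between controls. Correlations of log2 values were 0.987 between controls and 0.981 and 0.982 for those pairs. Of the lists, 4 genes (Knl1, Sgo1, Haspin and Sgo2a) were matched by RefSeq synonyms and all others by symbol. The members and lists were chosen with earlier results of these data known. By rule, values per library are given for the 2 members of each role with the smallest limma p and for those called at 1.5-fold or more. Outside this rule, they are also given for Cdk1, Mad2l1, Bub3, Tpx2, Pttg1 and Racgap1, picked after their values were seen. Up to 6 called genes are named by rule from each list, and promoters are shown for the 4 smallest p. Marker lists are given by counts. Promoter windows and exon overlaps are on GRCm38, which was not compared with the build of the table.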

Additional observations from a re-analysis of the deposited data

How the results depend on the processing

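Pseudocounts of 1 and 8, no filter, a minimum count of 50, edgeR and DESeq2 left all 44 directions as they were, with 33 to 36 members lower, 0 higher and a median log2 fold change of -0.52 to -0.50. No pairing of libraries by replicate number was seen (correlations of same-numbered deviations -0.04, -0.00 and 0.06, and control replicate 1 correlated best with cKO replicate 2), though this check cannot exclude a pairing. With the replicate block 33 members were lower and 0 higher. Leaving out 1 library gave 29 to 34 members lower, 0 higher and medians of -0.55 to -0.42, with the smallest median without control replicate 1. Over these 6 fits 27 to 42 other mitotic genes and 17 to 20 replication genes were lower, 0 of either were higher, and 1278 to 1792 of all genes were lower and 916 to 1764 higher.

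Scaling mattered more. Library totals gave a median of -0.59 for the members and 807 of all genes higher. The Sertoli scaling gave -0.90, with 69 other mitotic genes lower and 6896 of all genes lower and 55 higher, and Cdk1 (-0.21), Bub3 (-0.18) and Racgap1 (-0.26) turned negative. The germ cell scaling, which divides by markers of which 5 of 6 were called lower, gave a median of 0.052, with 3 members lower and 6 higher, 3 other mitotic genes lower and 20 higher, 3 replication genes lower and 5 higher, and 261 of all genes lower and 10356 higher. Under it these log2 fold changes became positive: Ccnb1 0.15, Ccnb2 0.44, Ccna2 0.35, Plk1 0.0228, Bub1b 0.18, Mad2l1 0.32, Cenpa 0.0675, Ndc80 0.19, Nuf2 0.23, Aurkb 0.29, Birc5 0.11, Cdca8 0.12, Kif11 0.0364, Tpx2 0.15, Smc2 0.0695, Ncapd2 0.11, Ncapg 0.0117, Ncaph 0.27, Cdc20 0.0181, Pttg1 0.40, Prc1 0.16, Ect2 0.13, Anln 0.29 and Eif5 0.24. The lowest count of a member in a library was 367 reads; depth and the 3 libraries per group both limit the precision.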

Other observations

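The 44 mitotic genes varied more among the control libraries than among the cKO libraries. Their median coefficient of variation was 11.6% in control and 6.09% in cKO (n = 3 per group), where 8781 genes with control means in the same range, 571 to 8616 normalised read counts, had medians of 9.14% and 6.05%. Control replicate 1 was the highest control for 30 of the 44 genes, against 41.4% of those 8781 genes. The same library had the highest summed level of pan germ cell markers (38773, against 31267 and 31695 in the other controls) and the lowest of Sertoli cell markers (245624, against 353080 and 367815). By the mean log2 level of the Sertoli markers minus its control mean, control replicate 1 was also the lowest control (-0.19, against 0.065 and 0.12). Per kb of annotated exon (GENCODE M21, all exons of a gene merged), the control levels of the members ran from 88.0 normalised read counts for Ndc80 to 1209 for Cdc20. On that scale the 4 subunits of the NDC80 complex read 572 for Spc25, 414 for Spc24, 206 for Nuf2 and 88.0 for Ndc80. Merged exons can be longer than the transcript made, so differences between genes on this scale are uncertain.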
